A study of Mus musculus with 8 samples.

Results

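The 8 genes described here mark or set the split of mature splenic B cells into marginal zone and follicular cells: Cr2, Fcer2a, Cd1d1, Cd9, Notch2, Hes1, Dtx1 and Id3. They were taken by gene symbol from the gene count table, which lists 41250 named genes, and all 8 were found and passed the filter on low counts that left 14789 genes for testing. The cells were mouse splenic B cells from animals homozygous for the 3'RR deletion, homozygous for the hs3b-hs4 deletion, homozygous for the 3'PAL deletion, or wild-type, all on the mixed background given in the labels as 129/C58BL/6. The 3'RR is a group of enhancers 3' of the immunoglobulin heavy chain constant genes, hs3b and hs4 are enhancers within it, and the labels give the 3'PAL deletion by name only. Stimulated cells had been cultured for 48 hours with 5 µg/mL lipopolysaccharide (LPS), a product of bacterial walls to which B cells respond by way of TLR4, and resting cells were taken directly after removal of CD43-positive cells. Each genotype in each state is 1 library from a pool of 4 animals, for which the labels state neither age nor sex, so a comparison of a mutant with wild type within a state has no replicate check. A mutant comparison over both states has the states of a genotype in place of replicates. The labels do not say whether these came from the same pool. If they did, an effect of genotype cannot be told apart from a difference between pools.

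Marginal zone B cells line the marginal sinus of the spleen, capture blood-borne antigen and are known to answer LPS quickly, whereas follicular B cells recirculate and enter germinal centres. The choice between these fates is set by Notch2: a ligand of the Delta-like family on splenic stroma binds Notch2, the receptor is cleaved, and its intracellular part enters the nucleus and turns the DNA-binding protein RBPJ from a repressor into an activator with Mastermind-like proteins. Hes1 and Dtx1 are Notch targets, Cr2, Cd1d1 and Cd9 are surface molecules that are high on marginal zone cells, Fcer2a is high on follicular cells, and Id3 holds back the E proteins that act in the same choice.

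Because RBPJ and the E proteins act through short DNA words, the promoters of the members were searched for them. The RefSeq windows (GRCm38.p6, 250 bases before to 50 bases after each start) matched 6 of the 8 members. Entries for Cd1d1 and Hes1 were not matched. The word GTGGGAA, the core that RBPJ binds, or its reverse complement TTCCCAC, occurred in the windows of Cr2 and Cd9, 1 copy each, and in 6.38% of all 32851 windows. The following 3 windows are shown because the first 2 hold that word, in capitals, and the third belongs to Dtx1, a Notch target in B cells whose window holds no copy.
Cr2: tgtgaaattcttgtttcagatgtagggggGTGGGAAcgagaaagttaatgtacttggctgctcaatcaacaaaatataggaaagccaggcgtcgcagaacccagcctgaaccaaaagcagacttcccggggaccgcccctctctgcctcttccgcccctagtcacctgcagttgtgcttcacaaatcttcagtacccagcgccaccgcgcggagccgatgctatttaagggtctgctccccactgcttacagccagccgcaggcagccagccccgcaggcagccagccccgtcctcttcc
Cd9: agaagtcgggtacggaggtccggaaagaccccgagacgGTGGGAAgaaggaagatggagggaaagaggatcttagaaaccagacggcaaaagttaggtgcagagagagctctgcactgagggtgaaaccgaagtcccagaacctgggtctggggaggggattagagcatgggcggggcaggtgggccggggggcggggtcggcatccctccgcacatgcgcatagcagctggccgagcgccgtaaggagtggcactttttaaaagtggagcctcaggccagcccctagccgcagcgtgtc
Dtx1: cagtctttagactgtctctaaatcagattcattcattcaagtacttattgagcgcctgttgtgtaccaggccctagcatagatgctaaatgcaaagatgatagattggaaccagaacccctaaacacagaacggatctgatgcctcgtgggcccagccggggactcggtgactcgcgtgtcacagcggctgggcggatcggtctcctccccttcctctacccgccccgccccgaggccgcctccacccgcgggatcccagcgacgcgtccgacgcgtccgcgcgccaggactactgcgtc
They lie on the minus strand at chr1:195176670-195176969 (Cr2), chr6:125494711-125495010 (Cd9) and chr5:120711620-120711919 (Dtx1), and are written 5′ to 3′ in the direction of transcription. The word starts at position -221 from the transcription start in Cr2 and at position -212 in Cd9. The E-box words CAGGTG (or CACCTG) and CAGCTG, which E proteins bind, occurred in 20.2% and 16.3% of all windows. Cr2 held 1 CAGGTG in either orientation, Cd9 held 1 of each E-box word, and 1 of the 3 Fcer2a windows held 2 copies of CAGGTG and 1 of CAGCTG. None of these matches overlapped a copy of GTGGGAA. The windows of Notch2, Id3 and Dtx1 held none of the 3 words, which says only that these letters are not in these windows.

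Total gene counts were highest in wild-type stimulated cells, at 28785192, and lowest in wild-type resting cells, at 17883683, so 3 counts, the limit that a count of 0 allows, corresponded to 0.106 to 0.156 CPM (counts scaled to library size and by edgeR's TMM factors). B cell markers were present in all libraries: the summed level of 6 genes ran from 2320 to 2930 CPM in stimulated and from 3010 to 3150 CPM in resting cells. Macrophage, erythroid, platelet and follicular dendritic cell markers were higher in resting cells. The sum of 12 monocyte and macrophage markers was 15.4 to 34.5 CPM in stimulated and 312 to 1360 CPM in resting cells, with 1360 CPM in 3'RR-deleted, 610 CPM in hs3b-hs4-deleted, 312 CPM in 3'PAL-deleted and 418 CPM in wild-type resting cells. Over both states 6 of these 12 markers were called higher in 3'RR-deleted cells. Erythroid markers (8 genes) summed to 10.4 to 244 CPM in stimulated and 3110 to 21500 CPM in resting cells. The resting sums were 13400 CPM in 3'RR-deleted, 10700 CPM in hs3b-hs4-deleted, 21500 CPM in 3'PAL-deleted and 3110 CPM in wild-type cells, and over both states 7 of the 8 were called higher in 3'RR-deleted, 1 in hs3b-hs4-deleted and 7 in 3'PAL-deleted cells. Platelet markers (7 genes) summed to 7.55 to 10.2 CPM in stimulated and 42.5 to 109 CPM in resting cells. The sums of plasma cell markers (6 genes) overlapped between the states, at 970 to 2120 CPM in stimulated and 956 to 1830 CPM in resting cells. The single markers did not move alike. In stimulated cells 3 were called higher, Prdm1 (log2 fold change 2.68 ± 0.20), Xbp1 (2.29 ± 0.13) and Sdc1 (0.93 ± 0.21). Irf4 was called lower (-0.80 ± 0.15), and 2 were not called. The sum of 7 follicular dendritic cell markers, a stromal type that also carries complement receptors, was 2.5 to 4.31 CPM in stimulated and 65.4 to 325 CPM in resting cells, again highest in 3'RR-deleted cells, where Vcam1, also a macrophage marker, gave 303 CPM of it. C1qc, Clec9a, Coch, Gp9 and Gp6 had no count in any stimulated library. The part of such cells in the results below was not tested. In these bulk samples, fewer cells of a type and less RNA per cell cannot be told apart.

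After LPS culture 7 of the 8 genes were lower and 1, Id3, was higher. The comparison asks how the genes of the 2 fates stand in cells cultured with LPS beside cells taken directly. No library was cultured without LPS, so the effects of LPS and of culture away from the spleen were not tested apart. Changes written here as changes with stimulation cover both. The comparison used a single fit over the 8 libraries with genotype and state as terms. It called 69.7% of the tested genes (34.5% higher and 35.2% lower in stimulated cells), so a call by itself is common. The members' median log2 fold change was -1.45, beside -0.0193 over all tested genes. The stimulated and resting values of each member did not overlap. The share of all tested genes without such overlap was not counted, so this is not by itself a result about the members.

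**Figure D1:**
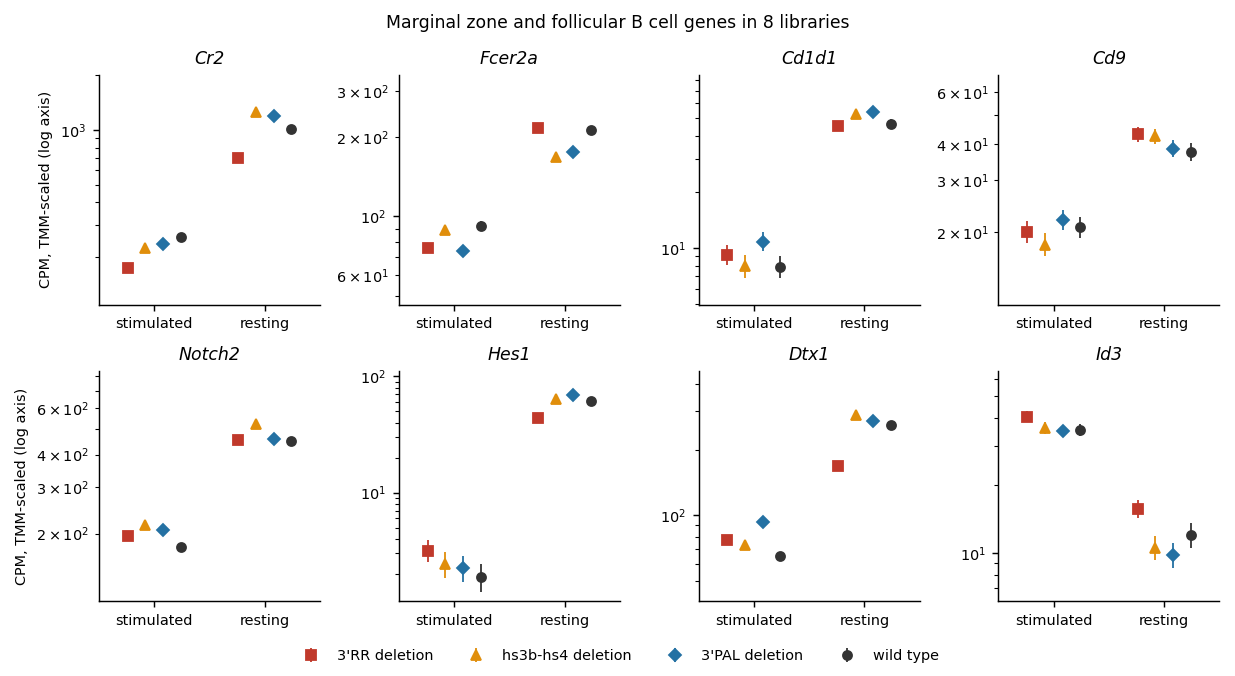
Level of each gene in the 8 libraries, as TMM-scaled CPM on a log axis, stimulated cells left and resting cells right, with exact 95% counting intervals. In 7 panels all stimulated points lie below all resting points, and for Id3 the stimulated points, 35.1 to 40.5 CPM, lie above the resting points, 9.76 to 15.8 CPM.

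Cr2 encodes complement receptors CD21 and CD35, which lower the threshold of B cell activation by antigen that carries complement. In stimulated cells it had 174.2 CPM in 3'RR-deleted, 223.3 CPM in hs3b-hs4-deleted, 234.2 CPM in 3'PAL-deleted and 258.2 CPM in wild-type cells. In resting cells it had 697.5 CPM in 3'RR-deleted, 1265 CPM in hs3b-hs4-deleted, 1198 CPM in 3'PAL-deleted and 1012 CPM in wild-type cells. The 3'RR-deleted library was the lowest in both states. The log2 fold change with stimulation was -2.21 ± 0.12 (SE, edgeR adjusted p = 1.28e-05), and the stimulated over resting ratio ran from 0.176 in hs3b-hs4-deleted to 0.255 in wild-type cells. The gene lies on chromosome 1 from 195136811 to 195176715 (GRCm38, minus strand). The 11 Cr2 transcripts in the estimated counts were not assigned to CD21 or CD35, so the 2 receptors were not told apart.

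Fcer2a encodes CD23, the low-affinity IgE receptor, and is the follicular counterpart of Cr2 in staining of B cell subsets. Stimulated cells had 75.61 CPM in 3'RR-deleted, 88.93 CPM in hs3b-hs4-deleted, 73.99 CPM in 3'PAL-deleted and 92.25 CPM in wild-type cells. Resting cells had 216.7 CPM in 3'RR-deleted, 167.8 CPM in hs3b-hs4-deleted, 176.4 CPM in 3'PAL-deleted and 213.6 CPM in wild-type cells. The fall was -1.23 ± 0.11 on the log2 scale (adjusted p = 6.45e-05), a smaller log2 change than that of Cr2, though the difference between the genes was not tested. Fcer2a lies at 3681737 to 3694174 of chromosome 8 (GRCm38, minus strand). CD23 is induced by interleukin 4 and shed by ADAM10, and all 6 genes of the list for CD23 and interleukin 4 signalling fell with stimulation: Fcer2a, Il4ra (-1.21 ± 0.08), Stat6 (-0.96 ± 0.09), Fcer1g (-5.22 ± 0.24), and Adam10 and Il13ra1, both named after their values were seen. Fcer1g, whose product is known mainly from myeloid cells, had 0.141 to 0.483 CPM in stimulated and 7.22 to 27.6 CPM in resting cells.

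Cd1d1 presents lipid antigen to natural killer T cells. It had 9.186 CPM in 3'RR-deleted, 7.966 CPM in hs3b-hs4-deleted, 10.79 CPM in 3'PAL-deleted and 7.899 CPM in wild-type stimulated cells. The resting libraries had 45.34 CPM in 3'RR-deleted, 52.35 CPM in hs3b-hs4-deleted, 53.69 CPM in 3'PAL-deleted and 46.51 CPM in wild-type cells, a range of only 1.18-fold. Its fall of -2.47 ± 0.11 (adjusted p = 6.66e-06) had ratios of 0.152 to 0.203 in the 4 genotypes. Cd1d1 lies at 86995834 to 86999441 of chromosome 3 (GRCm38, minus strand). Its neighbour Cd1d2 shares 96.7% of 1008 aligned coding bases, so reads of the 2 genes may have been exchanged or lost in counting. Of 7 genes of CD1d assembly and lipid loading, 3 rose, the chaperones Canx (1.48 ± 0.10) and Calr (1.28 ± 0.08) and the lipid transfer protein Mttp (0.60 ± 0.20). Psap, the saposin precursor (-1.61 ± 0.12), fell, as did Ap3d1, which was named after its value was seen.

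Cd9 encodes a tetraspanin that organises membrane complexes and marks marginal zone, B-1 and antibody-secreting cells. It had 20.05 CPM in 3'RR-deleted, 18.07 CPM in hs3b-hs4-deleted, 21.96 CPM in 3'PAL-deleted and 20.77 CPM in wild-type stimulated cells. The resting values were 43.12 CPM in 3'RR-deleted, 42.5 CPM in hs3b-hs4-deleted, 38.55 CPM in 3'PAL-deleted and 37.58 CPM in wild-type cells. This was the smallest fall among the 7, at -1.001 ± 0.10 (adjusted p = 0.000114). Cd9 lies at 125460266 to 125494791 of chromosome 6 (GRCm38, minus strand), where low-count genes on the other strand overlap it, and the strand setting of the counting is not stated. Among 12 other tetraspanins 9 fell. Cd37 (-1.34 ± 0.10), Cd82 (-1.19 ± 0.13) and Tspan32 (-1.10 ± 0.12) had the lowest adjusted p among the falls, and the scarcer Tspan33 (-2.79 ± 0.57) and Cd63 (-2.67 ± 0.43), named after their values were seen, fell further, while Tspan31 (1.05 ± 0.09) and Tspan3 (0.42 ± 0.12) rose. Cd81, the tetraspanin that associates with CD21 at the B cell surface, had 106 to 114 CPM in stimulated and 103 to 127 CPM in resting cells and was not called (-0.07 ± 0.08). Among genes of complement control and B cell receptor signalling, Cd55, which protects cells from complement (-2.24 ± 0.10), the receptor subunit Cd79a (-0.73 ± 0.13), Vav2 (-0.41 ± 0.08) and Ifitm3 (-2.25 ± 0.49) fell.

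Notch2, the receptor of the fate choice, had 196 CPM in 3'RR-deleted, 216.3 CPM in hs3b-hs4-deleted, 206 CPM in 3'PAL-deleted and 177.2 CPM in wild-type stimulated cells. Resting cells had 456 CPM in 3'RR-deleted, 521 CPM in hs3b-hs4-deleted, 460.4 CPM in 3'PAL-deleted and 450.5 CPM in wild-type cells. It fell by 1.25 ± 0.08 on the log2 scale (adjusted p = 2.03e-05), with ratios between 0.393 and 0.447 over the genotypes. Notch2 lies at 98013538 to 98150367 of chromosome 3 (GRCm38, plus strand). Notch1, which drives T cell fate and is induced in activated B cells, went the other way, with 47.9 to 55 CPM in stimulated and 24.6 to 31.3 CPM in resting cells (0.84 ± 0.10, adjusted p = 0.0003).

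Hes1, a transcriptional repressor and a direct Notch target in many tissues, had the largest fall. It had 3.161 CPM in 3'RR-deleted, 2.417 CPM in hs3b-hs4-deleted, 2.228 CPM in 3'PAL-deleted and 1.869 CPM in wild-type stimulated cells, from 53 to 85 counts a library. The resting libraries had 44 CPM in 3'RR-deleted, 64.23 CPM in hs3b-hs4-deleted, 69.6 CPM in 3'PAL-deleted and 61.66 CPM in wild-type cells. The log2 fold change was -4.62 ± 0.22 (adjusted p = 8.15e-06). Hes1 lies at 30064384 to 30067796 of chromosome 16 (GRCm38, plus strand). Stimulated cells kept 0.0718 of the resting level (95% counting interval 0.057 to 0.0895) in 3'RR-deleted cells and 0.0303 (0.0226 to 0.0399) in wild-type cells, and these intervals did not overlap.

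Dtx1 encodes Deltex, a ubiquitin ligase that binds the intracellular part of Notch and is itself a Notch target. It had 77.21 CPM in 3'RR-deleted, 73.24 CPM in hs3b-hs4-deleted, 93.66 CPM in 3'PAL-deleted and 64.88 CPM in wild-type stimulated cells. In resting cells it had 168.7 CPM in 3'RR-deleted, 287.3 CPM in hs3b-hs4-deleted, 271.9 CPM in 3'PAL-deleted and 260.4 CPM in wild-type cells. The fall was -1.66 ± 0.16 (adjusted p = 8.53e-05), with a ratio of 0.458 in 3'RR-deleted and 0.249 in wild-type cells. Dtx1 lies at 120680202 to 120711927 of chromosome 5 (GRCm38, minus strand). The resting 3'RR-deleted library was again the lowest, while the stimulated one was not.

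Id3 encodes an inhibitor that lacks a DNA-binding region and sequesters E proteins. It had 40.54 CPM in 3'RR-deleted, 36.1 CPM in hs3b-hs4-deleted, 35.09 CPM in 3'PAL-deleted and 35.4 CPM in wild-type stimulated cells. Resting cells had 15.77 CPM in 3'RR-deleted, 10.56 CPM in hs3b-hs4-deleted, 9.762 CPM in 3'PAL-deleted and 11.99 CPM in wild-type cells. Its rise was 1.63 ± 0.11 (adjusted p = 2.26e-05), from 2.57-fold in 3'RR-deleted to 3.59-fold in 3'PAL-deleted cells. Id3 lies at 136143497 to 136145755 of chromosome 4 (GRCm38, plus strand). Of the E and Id proteins tested, 3 rose and 3 fell: Id2 (-1.99 ± 0.11) and the scarce Id1 (-2.45 ± 0.44) moved opposite to Id3, Tcf12 (-0.63 ± 0.11) fell, and Tcf3 (0.39 ± 0.07) and Tcf4 (0.39 ± 0.08), named after their values were seen, rose.

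**Figure D2:**
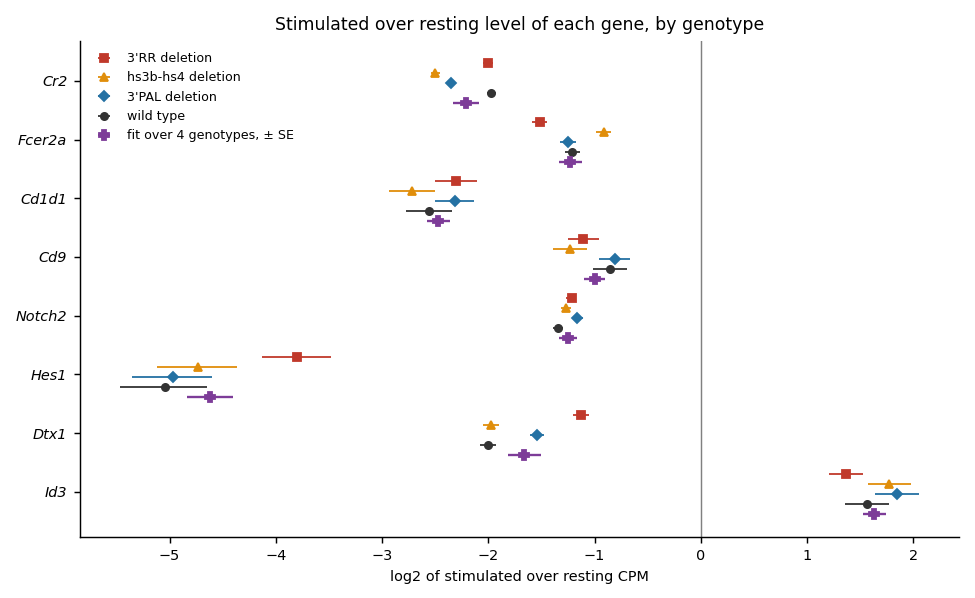
Log2 of stimulated over resting CPM for each gene and genotype, with 95% counting intervals, and the fitted log2 fold change over the 4 genotypes with its standard error. Hes1 lies farthest to the left, with a fitted value of -4.62, and Id3, with a fitted value of 1.63, is the sole gene right of 0, in all 4 genotypes.

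The order of the members by level was read per kilobase of exon, since their lengths differ. In resting cells the mean was 144 CPM per kilobase for Cr2, 86.4 for Fcer2a, 53 for Dtx1, 44.9 for Notch2, 29.4 for Hes1, 19.8 for Cd9, 19.2 for Cd1d1 and 6.71 for Id3. The ranges of 3 neighbouring pairs overlapped over the 4 libraries: Cr2 with Fcer2a, Dtx1 with Notch2, and Cd9 with Cd1d1. In stimulated cells the order was Fcer2a at 36.9 CPM per kilobase, Cr2 at 30.7, Id3 at 20.6, Notch2 at 18.9, Dtx1 at 16.6, Cd9 at 9.89, Cd1d1 at 3.49 and Hes1 at 1.19. There Fcer2a overlapped Cr2, Id3 overlapped Notch2, and Notch2 overlapped Dtx1. Id3 was thus last of the 8 in resting cells and just behind Fcer2a and Cr2 in stimulated cells, where Hes1 was last. The authors' TPM, a length-scaled transcript abundance, placed Hes1 higher in resting cells, with a mean of 63.2 TPM beside 48.6 TPM for Notch2, and likewise Cd1d1, at 51.7 TPM. In stimulated cells it placed Cr2, at 106 TPM, above Fcer2a, at 44.2 TPM, so the order of that pair depended on the scale.

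The genes of the Notch pathway, taken from 6 lists by role with the members Notch2, Hes1 and Dtx1 among them, leaned to lower levels. Of 49 genes 45 were tested, 26 fell and 5 rose, with a median log2 fold change of -0.492. Over all tested genes 35.2% fell and 34.5% rose, with a median of -0.0193. As 69.7% of all tested genes were called, the number of calls in a list below is not by itself a result about the pathway. Among ligands Jag1 (-5.46 ± 0.46), Dll1 (-1.09 ± 0.26) and Dll4 (-1.18 ± 0.40) fell and Jag2 (-0.81 ± 0.56) was not called. These ligands were scarce: Jag1 had 0 to 0.317 CPM in stimulated and 1.93 to 6.39 CPM in resting cells. Among receptors Notch4 fell (-2.43 ± 0.30), and Notch3 was too low to test.

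Of 13 genes for receptor maturation and cleavage, 6 fell and 2 rose. Furin, which cuts the receptor on its way to the surface (-1.15 ± 0.13), the gamma-secretase subunits Aph1b (-1.53 ± 0.25) and Psen2 (-0.62 ± 0.12) and the glycosyltransferase Mfng (-0.41 ± 0.09) fell, while Aph1a (0.47 ± 0.11) and Rfng (0.44 ± 0.14) rose. In the nuclear complex 9 of 10 genes fell. All 3 Mastermind-like coactivators were among them, Maml1 (-1.08 ± 0.12), Maml2 (-1.66 ± 0.13) and Maml3 (-1.56 ± 0.18), with the acetyltransferase Kat2b (-0.74 ± 0.09). Rbpj, named for its role after its value was seen, moved far less (-0.30 ± 0.08, adjusted p = 0.012), and Snw1 (0.38 ± 0.08) rose.

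Of 11 regulators 4 fell, among them Dtx1, Neurl3 (-1.46 ± 0.18) and the ubiquitin ligase Itch (-0.66 ± 0.09), and Mib1, which acts in ligand-bearing cells, rose (0.77 ± 0.10). The Deltex relatives Dtx2, Dtx3, Dtx3l and Dtx4, named after their values were seen, were not called. Of 4 tested targets Hes1 and the scarce Hey1 (-1.45 ± 0.41) fell. Hes5 and Nrarp, another Notch-induced gene in many tissues, were not called: Nrarp had 1.7 to 3.36 CPM in stimulated and 1.83 to 3.12 CPM in resting cells (-0.06 ± 0.22).

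Other marginal zone genes split. Of 15 genes 10 fell and 5 rose, with a median of -1.11. Asb2 (-5.79 ± 0.25), the cannabinoid receptor Cnr2 (-3.09 ± 0.17) and the integrin subunit Itgb7 (-2.70 ± 0.08) fell. The 5 that rose were Mzb1, an endoplasmic reticulum chaperone also high in antibody-secreting cells (2.35 ± 0.13), the scavenger receptor Cd36 (1.87 ± 0.29), the BAFF and APRIL receptor Tnfrsf13b (1.58 ± 0.10) and the integrin subunits Itgb1 (1.43 ± 0.12) and Itgal (0.52 ± 0.09). Of 11 follicular and recirculation genes 9 fell and none rose, with a median of -1.01. Ccr7 (-3.47 ± 0.09), Klf2 (-3.67 ± 0.24), Gpr183 (-2.25 ± 0.16) and Klf3 (-1.76 ± 0.13) had the lowest adjusted p. Of 3 tested genes of transitional cells, Cd24a (1.76 ± 0.16) and Cd93 (0.72 ± 0.13) rose and Vpreb3 (-1.14 ± 0.10) fell. Genes of both fates therefore fell, and whether the marginal zone and follicular lists differed was not tested.

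**Figure D3:**
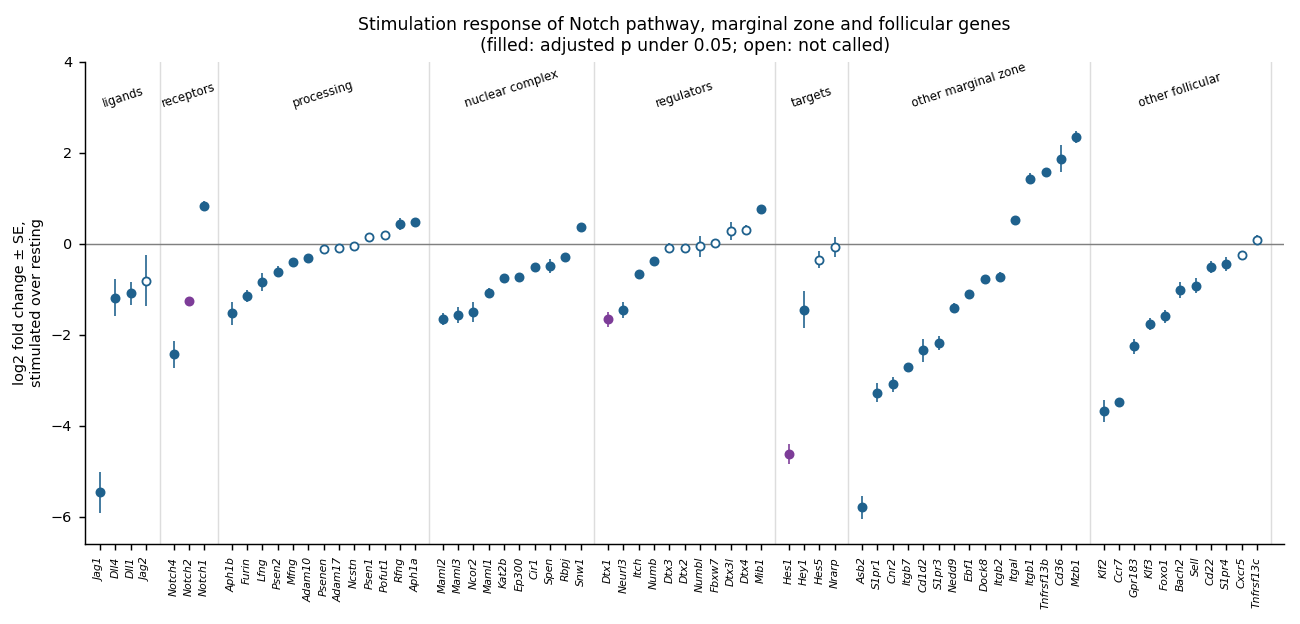
Fitted log2 fold change with stimulation, with standard error, for the tested genes of the Notch pathway by role and for other marginal zone and follicular genes. Filled points have an adjusted p under 0.05, and Notch2, Dtx1 and Hes1 are in purple. In the nuclear complex 9 of 10 points are filled below 0, whereas the 15 other marginal zone genes spread from -5.79 to 2.35.

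Over both states no member passed the test in any mutant. The share of all genes called was 1.88% for the 3'RR deletion, 0.135% for the hs3b-hs4 deletion and 0.514% for the 3'PAL deletion, with 0 of 8 members each. At an unadjusted p under 0.05 edgeR had 2022 genes for 3'RR, 1316 for hs3b-hs4 and 1412 for 3'PAL, and among the members Cr2 for 3'RR. The 3 comparisons share the wild-type libraries. The members' median log2 fold change was 0.0381 for 3'RR, beside 0.0471 over all genes, 0.0813 for hs3b-hs4, beside 0.0426, and 0.0915 for 3'PAL, beside 0.0335. The value farthest from 0 was Cr2 in 3'RR-deleted cells, at -0.55 ± 0.17 (unadjusted p = 0.0125, adjusted p = 0.198). Notch2 in hs3b-hs4-deleted cells had 0.25 ± 0.11 (adjusted p = 0.603) and Cd1d1 in 3'PAL-deleted cells 0.32 ± 0.14 (adjusted p = 0.538). None of these is shown to be absent, since 3 residual degrees of freedom limit what the fit can call.

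Among the other genes of the pathway lists, Id2 alone was called in a mutant. It had 20 CPM in 3'RR-deleted and 12.6 CPM in wild-type stimulated cells, and 93.3 CPM in 3'RR-deleted and 40 CPM in wild-type resting cells (log2 fold change 0.95 ± 0.15, edgeR adjusted p = 0.03). Id2 is also expressed by dendritic and natural killer cells. Dendritic cell markers (7 genes) summed to 190 CPM in 3'RR-deleted and 85.4 CPM in wild-type resting cells. Natural killer cell markers (4 genes) summed to 4.62 CPM in 3'RR-deleted and 6.54 CPM in wild-type resting cells. The part of such cells in the Id2 value was not tested. The call ended without the 3'RR-deleted resting library, where the log2 value was 0.80 (adjusted p = 0.26), and without 4 others. Those were the wild-type resting (adjusted p = 0.163), the 3'RR-deleted stimulated (0.0824) and both hs3b-hs4-deleted libraries (0.062 without the resting and 0.0595 without the stimulated one).

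Within a state, where each ratio sets 1 library against 1, no member reached a log2 ratio of 1 on log2(CPM + 1) with at least 10 CPM. In stimulated cells 1.81% of genes did so in the 3'RR comparison, 0.811% in the hs3b-hs4 comparison and 1.72% in the 3'PAL comparison. In resting cells these shares were 3.23% for 3'RR, 2.04% for hs3b-hs4 and 2.02% for 3'PAL. Intervals here cover counting error only, not variation between pools. The ratios of the 8 genes lay between 0.648 and 1.69.

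**Figure D4:**
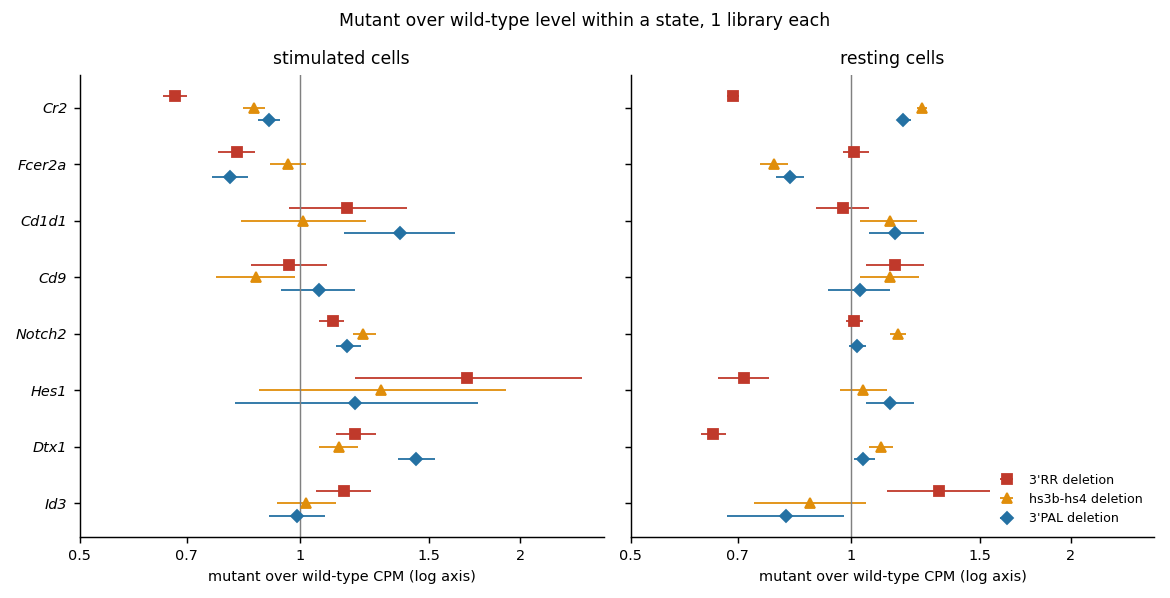
Mutant over wild-type CPM of each gene, log axis, stimulated cells left and resting cells right, with 95% counting intervals; each point sets 1 mutant library against the wild-type library of the same state. Cr2, Hes1 and Dtx1 in 3'RR-deleted resting cells lie between 0.648 and 0.714, and Cr2 alone of these is also below 1 in stimulated 3'RR-deleted cells.

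By CPM, the 3'RR-deleted libraries stood lowest for Cr2 in both states. On the authors' TPM this held in stimulated cells only, and wild type was lowest in resting cells for every member. Resting 3'RR-deleted and wild-type cells had 395 and 328 TPM for Cr2, 72.2 and 66.8 for Dtx1, and 57.3 and 45.3 for Hes1. For Notch2 they had 55.6 and 31.1 TPM. TPM was taken as deposited, without TMM scaling. From the authors' estimated counts, scaled by TMM, the resting Cr2 ratio of 3'RR-deleted to wild-type cells was 0.673. The Cr2 ratio of CPM to wild type was 0.675 (0.65 to 0.7) in stimulated and 0.689 (0.676 to 0.703) in resting cells. That ratio was thus nearly the same in both states. Dtx1 had 1.19 (1.12 to 1.27) in stimulated and 0.648 (0.623 to 0.674) in resting 3'RR-deleted cells. Hes1 had 1.69 (1.19 to 2.43) in stimulated and 0.714 (0.659 to 0.773) in resting 3'RR-deleted cells. By CPM both therefore lay above wild type in stimulated cells and below it in resting cells. Notch2 itself had 1.11 in stimulated and 1.01 in resting 3'RR-deleted cells, and Cd9 had 0.965 in stimulated and 1.15 in resting 3'RR-deleted cells. Id3 was the member with the highest resting ratio, 1.32 (1.12 to 1.55). In the 3'RR-deleted resting library Cd1d2 (1.55 CPM, against 5.19 CPM in wild type) and the sphingosine receptor S1pr3 (27.9 CPM, against 51.8 CPM), both named after their values were seen, were low as well, and neither was called over both states (adjusted p = 0.059 and 0.27). The 15 other marginal zone genes split in the 3'RR-deleted resting library, with 8 above and 7 below wild type. Asb2 had 62.2 CPM, against 31 CPM in wild type, and Ebf1, named after its value was seen, had 202 CPM, against 266 CPM.

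In hs3b-hs4-deleted cells Cr2 had a ratio of 0.865 (0.835 to 0.895) in stimulated and 1.25 (1.23 to 1.27) in resting cells, and in 3'PAL-deleted cells 0.907 (0.877 to 0.938) in stimulated and 1.18 (1.16 to 1.21) in resting cells. Fcer2a was below wild type in resting cells of both, at 0.785 (0.752 to 0.82) in hs3b-hs4-deleted and 0.826 (0.791 to 0.862) in 3'PAL-deleted cells. Notch2 in hs3b-hs4-deleted cells had 1.22 (1.18 to 1.27) in stimulated and 1.16 (1.13 to 1.19) in resting cells. The largest of the ratios outside the 3'RR comparison was that of Dtx1 in stimulated 3'PAL-deleted cells, 1.44 (1.36 to 1.53), which stood beside 1.04 (1.01 to 1.08) in resting 3'PAL-deleted cells. With library size alone, which put the median log2 ratio of all genes at -0.13 in the 3'PAL resting comparison, beside 0.053 with TMM, the ratios in that library fell below 1 for Cd9 (0.904), Notch2 (0.901), Hes1 (0.995) and Dtx1 (0.92). Under the same scaling the 3'RR resting ratios of Notch2 (0.953) and Fcer2a (0.955) were below 1.

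A ratio of 2 members within a library needs no scaling between libraries. Cr2 over Fcer2a, a marginal zone over a follicular marker, was 2.3 (2.19 to 2.43) in 3'RR-deleted, 2.51 (2.39 to 2.64) in hs3b-hs4-deleted, 3.17 (3.01 to 3.33) in 3'PAL-deleted and 2.8 (2.68 to 2.93) in wild-type stimulated cells. In resting cells it was 3.22 (3.13 to 3.31) in 3'RR-deleted, 7.54 (7.3 to 7.78) in hs3b-hs4-deleted, 6.79 (6.58 to 7.01) in 3'PAL-deleted and 4.74 (4.58 to 4.9) in wild-type cells. The resting libraries thus spread more widely than the stimulated ones, with the 3'RR-deleted library below and both other mutants above wild type. Dtx1 over Notch2, a target over its receptor, was 0.394 in 3'RR-deleted, 0.339 in hs3b-hs4-deleted, 0.455 in 3'PAL-deleted and 0.366 in wild-type stimulated cells. In resting cells it was 0.37 in 3'RR-deleted cells, apart from 0.551 in hs3b-hs4-deleted, 0.591 in 3'PAL-deleted and 0.578 in wild-type cells. Hes1 over Notch2 in resting cells was likewise lowest in 3'RR-deleted cells, at 0.0965, beside 0.123 in hs3b-hs4-deleted, 0.151 in 3'PAL-deleted and 0.137 in wild-type cells. In stimulated cells it was highest there, at 0.0161 (0.0129 to 0.02) in 3'RR-deleted, 0.0112 in hs3b-hs4-deleted, 0.0108 in 3'PAL-deleted and 0.0105 in wild-type cells.

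The estimated counts per transcript add a view of processing. For Dtx1, transcripts annotated as retaining an intron took 13.8% in 3'RR-deleted, 16.1% in hs3b-hs4-deleted, 13.7% in 3'PAL-deleted and 12.9% in wild-type stimulated cells. In resting cells they took 18.5% in 3'RR-deleted, 26.3% in hs3b-hs4-deleted, 27.6% in 3'PAL-deleted and 22.6% in wild-type cells. The states did not overlap, so Dtx1 transcripts without a retained intron fell less than the total. Retained-intron shares of Cr2 were 7.11 to 8.19% in stimulated and 6.67 to 7.46% in resting cells, and those of Cd1d1 were 45.5 to 58.7% in stimulated and 45.9 to 61.5% in resting cells. These shares are the program's division of reads among overlapping transcripts and carry its own error, which is not in the deposited table. Fcer2a and Notch2 had 1 transcript each in that table.

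**Figure D5:**
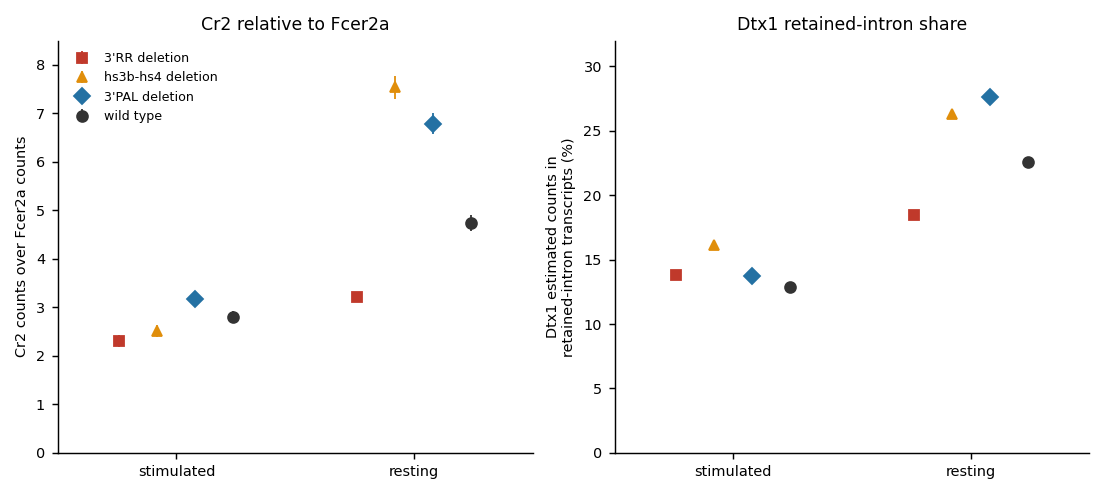
Cr2 counts over Fcer2a counts in each library with 95% counting intervals (left) and the percentage of Dtx1 estimated counts in retained-intron transcripts (right), stimulated cells before resting cells in each. The Cr2 to Fcer2a ratio runs from 2.3 to 3.17 in stimulated and from 3.22 to 7.54 in resting cells, and the Dtx1 share from 12.9 to 16.1% in stimulated and from 18.5 to 27.6% in resting cells.

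The genes whose pattern over the 8 libraries was most like a member's were found by Pearson's r of log2(CPM + 1) among 8187 genes. For Cr2 they were Fmnl3 (0.9981), Nedd9 (0.9963) and Pear1 (0.9962). For Fcer2a they were Sh3tc1, Pgap1 and Zfp62, for Cd1d1 Stk17b, Junb and Dirc2, for Cd9 Hgs, Birc3 and Dock10, and for Notch2 Btbd2 and Fam160a2. For Hes1 they were Inpp5d, Zc3h10 and Aff4, for Dtx1 Dnmbp, Ppl and Tspyl2, and for Id3 Brip1os, Men1 and Slc39a1. The r values of these genes were at least 0.9901, and between 406 genes (4.96%, Fcer2a) and 1289 genes (15.7%, Cd1d1) had an r of at least 0.95, since the 2 states dominate the 8 points. Among the members themselves, Cd1d1 with Notch2 and Cd1d1 with Hes1 had 0.99, Fcer2a with Dtx1 the lowest positive value, 0.87, and Id3 was negative with all others, weakest with Fcer2a (-0.92). These values describe libraries that share their states and genotypes, and the labels do not say whether any share a pool.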

How the data were processed

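RNA of 8 libraries was sequenced as stranded, ribosome-depleted paired-end libraries, per the labels' protocols. The authors deposited raw counts per gene symbol, for which the submitters' processing notes name the aligner STAR 2.4.0a, the build GRCm38 and featureCounts from Subread 1.4.6-p1. They also deposited estimated counts and TPM per transcript, made with kallisto 0.42.3, per the same notes. The strand setting and annotation version were not given in the sources used here. An entry with no gene name (0.00621 to 0.0342% of counts) was dropped.

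Counts were scaled by TMM (factors 0.943 to 1.08) and tested with edgeR 4.0.16 in R 4.3.3, by the quasi-likelihood test on state plus genotype. This left 3 residual degrees of freedom and a biological coefficient of variation of 16%. Genes were filtered by filterByExpr, and p was adjusted by Benjamini-Hochberg over 14789 genes at 0.05. The fit takes a mutant effect to be equal in both states. Each p rests on how far the difference between the states varied from genotype to genotype, since no group had a second library. Intervals are exact 95% Poisson or conditional binomial intervals. Promoter sequences came from RefSeq (GRCm38.p6), and gene coordinates and exon lengths from the authors' gene count table (GRCm38). GENCODE M21 gave the transcript types and the coding sequences of Cd1d1 and Cd1d2. The fit was tested on simulated data. Alternatives were library size alone, DESeq2 1.42.0 size factors, its Wald test, no filter, kallisto estimated counts rounded to whole numbers, no genotype block and leaving out each library.

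The members and lists were chosen with earlier results of these data known. Named besides the 8 members were at most 4 genes of each list with the lowest adjusted p for stimulation, those called against most of their list, list genes called in a mutant, and the 3 genes most like each member with mean log2 CPM of at least 3. Genes named outside this rule are marked as such. A few genes within the rule are not reported here.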

Additional observations from a re-analysis of the deposited data

Results flagged for a closer look

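Notch2 in resting cells stood apart in 1 library: hs3b-hs4-deleted cells had 521.0 CPM, while the 3'RR-deleted, 3'PAL-deleted and wild-type libraries lay between 450.5 and 460.4 CPM. Such a gap appears by chance in about 1 of 20 groups of this size, and 16 groups of 4 libraries (8 members in 2 states) were looked at.

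For 5 gene and mutant pairs the mutant over wild-type ratio lay on opposite sides of 1 in the states, with both counting intervals clear of 1; with 1 library each, none of these differences between states was tested. Cr2 had 0.865 in stimulated and 1.25 in resting hs3b-hs4-deleted cells, and 0.907 in stimulated and 1.18 in resting 3'PAL-deleted cells. Cd9 had 0.87 in stimulated and 1.13 in resting hs3b-hs4-deleted cells. In 3'RR-deleted cells Hes1 had 1.69 in stimulated and 0.714 in resting cells, and Dtx1 had 1.19 in stimulated and 0.648 in resting cells. By the authors' TPM, resting 3'RR-deleted cells lay above wild type for both, with 57.3 against 45.3 for Hes1 and 72.2 against 66.8 for Dtx1. On that scale, taken without TMM scaling, they lay above wild type for every member. The resting 3'RR-deleted library also had the highest macrophage marker sum, 1360 CPM, and the part of this in the Hes1 and Dtx1 ratios was not tested.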

How the results depend on the processing

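Each of the 8 members kept its direction and its call for stimulation under every alternative run, including without the genotype block and without each library, and no member was called in a mutant under any of them. The Notch pathway count varied from 23 to 26 genes lower and from 4 to 6 higher, and the other marginal zone count stayed at 10 lower, and the other follicular count varied from 7 (without either hs3b-hs4-deleted library) to 10 lower. Counts over all genes depended on the choice. For the 3'RR deletion 531 genes were called with the DESeq2 Wald test, 657 without the filter and 71 to 360 leaving out a library. For the hs3b-hs4 deletion the Wald test called 180, no filter 189, kallisto estimated counts 35 and leaving out a library 1 to 43. For the 3'PAL deletion the Wald test called 257, no filter 313 and leaving out a library 3 to 110. The cause was not tested. The log2 value of Cr2 in 3'RR-deleted cells ran from -0.76 to -0.39 (adjusted p from 0.0576 to 0.909). Of 96 within-state ratios recomputed by library size or kallisto counts, 23 left the counting interval. For stimulation, the fit pairs the states by genotype as a block, and 10308 genes were called with it and 9423 without it. Genotype stood as a term because each genotype had 1 library in each state. After the fit, libraries of 1 genotype were found to deviate together (r from 0.21 to 0.601). Hes1 in stimulated cells rests on 53 to 85 counts a library, the least depth of any member.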
